A study of Mus musculus with 8 samples.

Results

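Imprinted genes are expressed mainly or only from the allele inherited from 1 parent, and 41 mouse genes of this kind were examined here across ES cells and embryoid bodies. They were chosen by name as members of known imprinted clusters, with earlier results of these data known. The list is therefore not independent of the data. Of the 41, 36 had at least 1 probe set that the platform annotation ties to a single symbol, 102 such probe sets in all. Each gene was read by its brightest probe set, and 33 of the 36 passed the filter on dim genes and were tested among 12982 genes. The 3 that did not pass were Nap1l5, Peg12 and Rasgrf1. No one-symbol probe set was found for H19, whose probe set also carries the name of its microRNA, or for Zrsr1, Rtl1, Dio3 and Slc22a3. The listed genes form 18 clusters on 9 chromosomes. By common knowledge of the mouse, 23 are expressed from the paternal allele and 17 from the maternal allele, and Gnas has products of both kinds. The arrays sum both alleles, so none of the values below says which allele was read.

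Imprinting rests on DNA methylation laid down in the egg or the sperm at control regions, which is kept in the embryo while the rest of the genome is reprogrammed. One such mark can govern several neighbours, often through a long non-coding RNA on the opposite allele from the protein-coding genes, as with Kcnq1ot1, Airn and Meg3. Many imprinted genes act on fetal growth, on the placenta and on differentiation, with paternally expressed genes such as Igf2 known for promoting growth and maternally expressed ones such as Grb10, Phlda2 and Igf2r for restraining it. Imprints of ES cells in culture are known to vary between lines and passages. For some members, among them Gatm, Ascl2, Cd81 and Tssc4, imprinting is described mainly in extraembryonic tissue, and for Ube3a mainly in neurons.

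The samples came from CCE cells, a mouse ES cell line of strain 129/Sv grown with leukemia inhibitory factor. Embryoid bodies labelled Bmi1 (2 arrays) were aggregates grown for 10 days from ES cells that had received a lentivirus with a mouse Bmi1 cDNA, and vector embryoid bodies (2 arrays) came from ES cells with the empty vector. ES cells labelled Bmi1 (2 arrays) carried the same Bmi1 lentivirus, and the control ES cells were 1 untreated array and 1 empty vector array, joined here as 1 group. Transduced cells were sorted for eGFP per the protocol, so they are pools of sorted cells, while the untreated array by its title had no virus. Bmi1 is a subunit of Polycomb repressive complex 1, and the series set cells labelled Bmi1 against controls at both stages. The labels do not say that replicates were separate cultures, so the p-values below rest on the spread among arrays that may be technical repeats, and the number of arrays limits the precision.

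The proximal promoters of Nnat, Ndn, Grb10 and Gatm are shown here because CpG sites are where imprints are written. These 4 members passed the test in ES cells with the set of arrays as a block, while the unblocked fit called none of them. Gatm passed the filter on dim genes only through the arrays of ES cells labelled Bmi1, so its call is no support. The sequences are from RefSeq on GRCm38.p6, 300 bases each, from 250 before the transcription start to 50 after it. They run 5′ to 3′ on the strand of the gene, with each CpG in capitals. Nnat lies at chr2:157559828-157560127 on the plus strand with 17 CpG. Ndn lies at chr7:62348027-62348326 on the plus strand with 11 CpG. Grb10 has 2 windows on the minus strand, at chr11:12037371-12037670 with 45 CpG and at chr11:12027922-12028221 with 9 CpG. Gatm lies at chr2:122611228-122611527 on the minus strand with 22 CpG.
Nnat: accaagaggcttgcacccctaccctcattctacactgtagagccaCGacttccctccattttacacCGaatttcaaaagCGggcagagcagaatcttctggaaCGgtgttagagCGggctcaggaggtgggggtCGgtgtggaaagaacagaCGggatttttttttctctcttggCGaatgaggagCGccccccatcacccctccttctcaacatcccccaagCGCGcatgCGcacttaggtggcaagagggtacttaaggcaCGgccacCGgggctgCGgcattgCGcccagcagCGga
Ndn: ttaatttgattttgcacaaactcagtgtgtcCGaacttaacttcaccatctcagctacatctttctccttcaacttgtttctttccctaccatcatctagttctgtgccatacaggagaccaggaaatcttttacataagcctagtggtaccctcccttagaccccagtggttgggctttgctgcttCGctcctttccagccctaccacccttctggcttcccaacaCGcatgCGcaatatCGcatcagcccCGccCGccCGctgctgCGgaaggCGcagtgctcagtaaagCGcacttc
Grb10, upstream window: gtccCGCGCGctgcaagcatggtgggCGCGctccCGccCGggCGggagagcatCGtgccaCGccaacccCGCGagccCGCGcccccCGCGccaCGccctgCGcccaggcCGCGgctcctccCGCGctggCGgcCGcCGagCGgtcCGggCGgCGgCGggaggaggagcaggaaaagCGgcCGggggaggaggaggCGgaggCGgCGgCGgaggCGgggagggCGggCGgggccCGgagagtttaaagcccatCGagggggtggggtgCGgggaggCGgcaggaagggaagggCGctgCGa
Grb10, downstream window: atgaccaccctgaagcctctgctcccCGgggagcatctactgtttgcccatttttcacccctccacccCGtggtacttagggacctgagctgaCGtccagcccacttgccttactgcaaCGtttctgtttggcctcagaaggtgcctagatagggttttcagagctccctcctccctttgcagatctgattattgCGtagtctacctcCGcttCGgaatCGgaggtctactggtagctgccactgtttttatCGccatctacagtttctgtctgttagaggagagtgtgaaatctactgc
Gatm: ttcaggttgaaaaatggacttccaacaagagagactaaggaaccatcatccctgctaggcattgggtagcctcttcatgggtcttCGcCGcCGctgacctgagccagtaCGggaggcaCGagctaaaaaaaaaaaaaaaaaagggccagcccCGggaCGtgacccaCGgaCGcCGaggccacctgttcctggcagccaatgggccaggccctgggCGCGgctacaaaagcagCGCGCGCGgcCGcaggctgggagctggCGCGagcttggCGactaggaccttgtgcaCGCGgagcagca

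Promoter windows were found for 36 of the 41 listed genes, 51 windows in all, and their median CpG count was 14, against 7 over all 32851 windows. The ratio of observed to expected CpG had a median of 0.60 in windows of the listed genes and 0.38 in all windows. The letters TGCCGC, which the imprint-keeping zinc finger protein ZFP57 binds when methylated, were searched on both strands, and no other motif was searched. They stood in 19.6% of the windows of listed genes and in 11.6% of all windows. These letters include a CpG, and the shares were not matched for CpG content. The 10 windows belonged to 9 genes, namely Grb10, Igf2, Meg3, Mest, Nap1l5, Nnat, Plagl1, Snrpn and Zim1. For Mest, the overlapping windows at chr6:30737800-30738099 and chr6:30737803-30738102 were counted separately. Of the sequences above, Nnat and the upstream Grb10 window each hold 1 copy, and the other 3 hold none. The windows of Peg3 and Usp29, which point away from each other, share 263 bases on opposite strands.

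As a check of the labels, Bmi1 itself was measured: arrays with its label gave less signal than the controls, with log2 differences of -1.51 ± 0.37 in embryoid bodies and -1.59 ± 0.37 in ES cells (SE, 2 arrays a group). It is not known here whether this probe set can detect the virus transcript. Those samples are therefore called "labelled Bmi1" throughout. The arrays fell into 3 sets by the distribution of their values: 1 set for each replicate number of the embryoid bodies, and 1 set for all 4 arrays of ES cells. Each embryoid body set holds 1 array labelled Bmi1 and 1 vector array, so embryoid body results are also given within each set and from a fit with the set as a block. That fit changes no log2 difference, but its SE and p are those of a smaller spread. Stage and set cannot be told apart. Imprinted genes differed more between the arrays of a group than genes did in general. The root mean square gap was 0.61 log2 units over the members against 0.51 over all tested genes in embryoid bodies labelled Bmi1. It was 0.81 against 0.67 in vector embryoid bodies and 0.53 against 0.27 in ES cells labelled Bmi1. In control ES cells, where the gap lies between the untreated and the empty vector array, it was 0.34 against 0.23. In ES cells labelled Bmi1 the widest gap was that of Meg3, 1.43 log2 units. All values below are log2 signals, all differences are log2 differences with their SE, and a gene counts as called at an adjusted p under 0.05 (limma, Benjamini-Hochberg over the 12982 genes).

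Before differentiation, a group of imprinted genes read higher in ES cells labelled Bmi1 than in control ES cells, led by Gatm, Grb10, Dlk1, Nnat and Ndn. Over the 33 members 21 were higher and 12 lower, with a median difference of 0.25 against 0.00 over all tested genes. No member was called by limma, where 0.0462% of all genes were, and 7 members had an unadjusted p under 0.05 (Nnat, Gatm, Ndn, Ascl2, Plagl1, Grb10 and Dlk1), against 6.29% of all genes. With the set as a block 4 members were called higher and none lower, 12.1% of the 33, where 1.66% of all genes were called (1.39% higher and 0.27% lower), and these were Nnat, Gatm, Ndn and Grb10. Gatm passed the filter on dim genes only through the 2 arrays of ES cells labelled Bmi1, so its call is no support, while the other 3 were above the median on all 8 arrays. Without 1 array at a time, in blocked fits, Nnat and Grb10 were called in 5 of 8 fits each, Gatm in 1 and Ndn in 0. None of them was called without ES cell replicate 1 labelled Bmi1 or without either control array, although the differences hardly moved for Nnat (1.36 to 1.48).

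Gatm, which makes the precursor of creatine, read 7.78 and 6.55 in ES cells labelled Bmi1, compared with 4.88 in untreated and 4.81 in empty vector cells. Its difference was 2.32 ± 0.40 (adjusted p = 0.14, and 0.043 with the block), against control levels below the array median. In ES cells labelled Bmi1 Gatm stood well above the 2 controls in both arrays, but those arrays differed by more than 1 log2 unit, and without replicate 1 the difference was 1.70. Grb10, an adaptor that dampens insulin and growth factor signalling, read 10.43 and 10.26 in ES cells labelled Bmi1, compared with 8.93 in untreated and 8.63 in empty vector cells. The groups lay far apart, and the difference was 1.57 ± 0.45 (adjusted p = 0.43, and 0.016 with the block).

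Nnat, a small membrane protein of neurons and endocrine cells, read 7.80 and 7.68 in ES cells labelled Bmi1, compared with 6.32 in untreated and 6.33 in empty vector cells. Both groups were tight, and the difference of 1.42 ± 0.16 had the smallest p of the members (adjusted p = 0.073, and 0.0091 with the block). Ndn, a MAGE family protein that restrains cell division in neurons, read 9.76 and 9.42 in ES cells labelled Bmi1, compared with 8.56 in untreated and 8.68 in empty vector cells. Its difference was 0.97 ± 0.22 (adjusted p = 0.26, and 0.045 with the block).

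Dlk1, a membrane protein related to Notch ligands that holds back fat cell formation, read 7.26 and 6.73 in ES cells labelled Bmi1, compared with 5.89 in untreated and 5.02 in empty vector cells. The groups did not overlap, but the 2 controls differed by almost 1 log2 unit. The difference was 1.54 ± 0.32 over both controls, 1.10 against the untreated array and 1.97 against the empty vector array (adjusted p = 0.21, and 0.071 with the block). Plagl1, a zinc finger regulator of a network of imprinted growth genes, read 10.69 and 11.12 in ES cells labelled Bmi1, compared with 9.70 in untreated and 10.25 in empty vector cells. It differed by 0.93 ± 0.25 (adjusted p = 0.38, and 0.12 with the block).

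For Gatm, Grb10, Nnat and Ndn the choice of control made little difference. Their values were 2.28, 1.42, 1.43 and 1.04 against the untreated array and 2.35, 1.71, 1.41 and 0.91 against the empty vector array. Mest is an instance of the opposite, at 0.75 against the untreated and -0.31 against the empty vector array. In all, 15 of the 33 members read higher without overlap between the groups, against 25.1% of all genes, and 3 read lower (Asb4, Ube3a and Slc22a18), against 20.6% of all genes. Besides the 6 described, the higher ones were Ascl2 (0.82), Phlda2 (0.72), Igf2 (0.70), Peg10 (0.62), Magel2 (0.54), Gnas (0.46), Sgce (0.35), Inpp5f (0.35) and Snrpn (0.26).

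Cell type markers were read beside these values. In ES cells the 7 mesenchyme markers, such as collagens and Twist1, were all below the array median on every array. Neural markers summed to 1421 and 1522 on the linear scale in the ES cell arrays labelled Bmi1 and to 1393 and 1444 in the control arrays, and 4 of 8 were higher, with a median difference of 0.02. All 7 markers of undifferentiated ES cells were lower, with a median difference of -0.19 and none called, and their summed level was 58242 and 63413 in ES cells labelled Bmi1 against 69347 and 71389 in control ES cells. The part of the ES cell markers in the imprinted gene differences was not tested. In bulk samples, fewer cells of a type and less RNA per cell cannot be told apart.

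**Figure D1:**
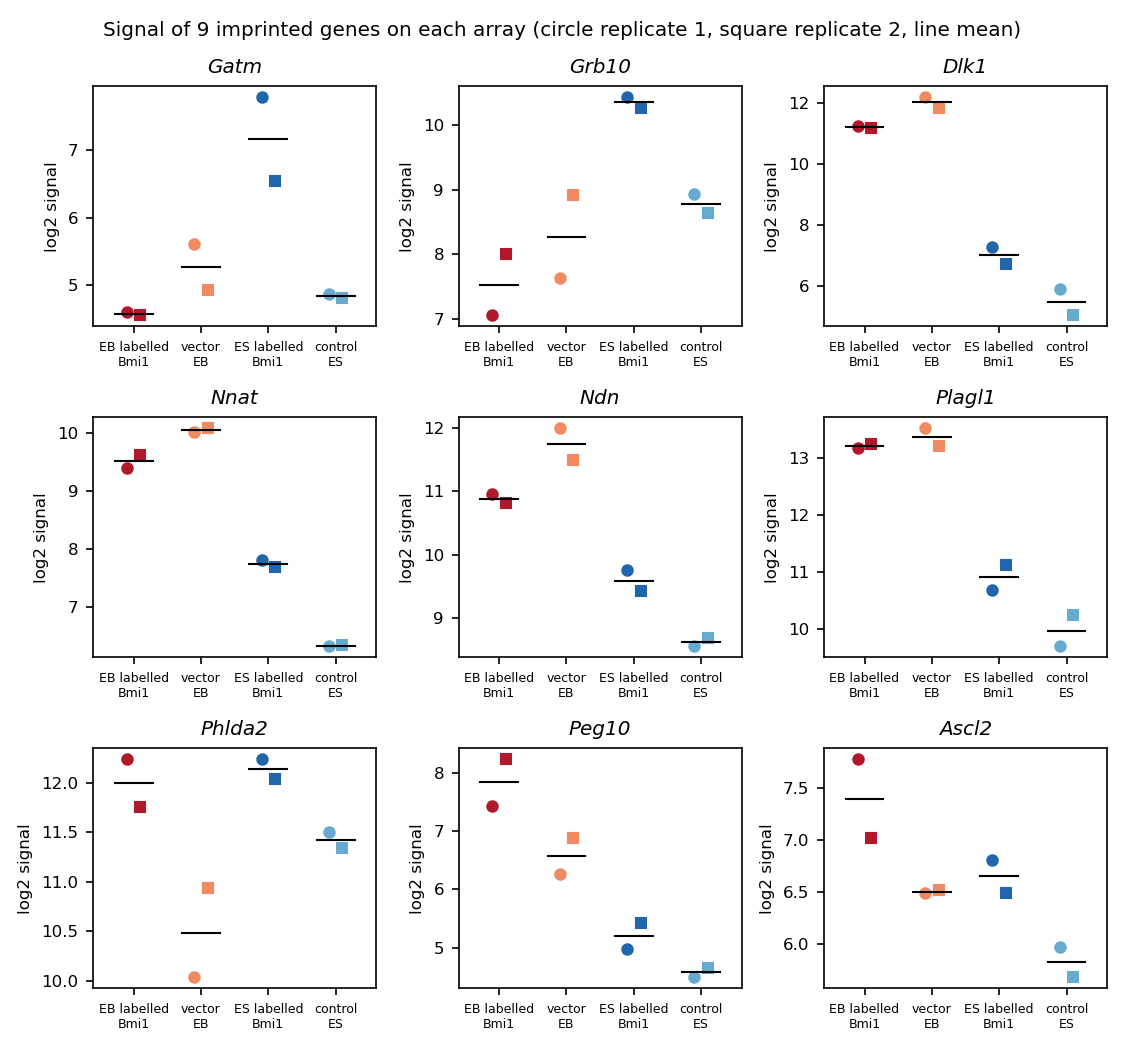
Log2 signal (vertical axis) of 9 imprinted genes on each of the 8 arrays, in groups from left to right of embryoid bodies (labelled Bmi1, then vector) and ES cells (labelled Bmi1, then control; circle replicate 1, square replicate 2, where the control circle is the untreated and the square the empty vector array; line, group mean). In ES cells all 9 genes lie higher on the arrays labelled Bmi1 than on both controls, while in embryoid bodies Phlda2, Peg10 and Ascl2 lie higher and Gatm, Dlk1, Nnat and Ndn lower without overlap, and the vertical axes do not start at 0.

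After 10 days as embryoid bodies the same list split. Phlda2, Peg10 and Ascl2 read higher in embryoid bodies labelled Bmi1 than in vector embryoid bodies, while Ndn, Dlk1, Gatm and Nnat read lower. Over the 33 members 11 were higher and 22 lower, with a median difference of -0.16 against -0.04 over all tested genes. By limma no member was called, where 0.139% of all genes were, and 6 had an unadjusted p under 0.05 (Nnat, Peg10, Ndn, Phlda2, Ascl2 and Dlk1), against 7.06% of all genes. With the set as a block 1 member, Peg10, was called, where 2.09% of all genes were. The groups did not overlap for 4 higher members (the 3 named and Inpp5f), against 10.8% of all genes, and for 7 lower ones (Nnat, Gnas, Gatm, Ndn, Cd81, Dlk1 and Mirg), against 14.4% of all genes.

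Phlda2, a pleckstrin-domain protein that limits placental growth, read 12.24 and 11.76 in embryoid bodies labelled Bmi1, compared with 10.03 and 10.94 in vector embryoid bodies. Its difference of 1.51 ± 0.32 was the highest of the members (adjusted p = 0.21, and 0.062 with the block), and it was 2.21 within the replicate 1 set and 0.82 within the other. The unblocked fit called it once vector replicate 2 was left out. Peg10, a gene of retrotransposon origin that the placenta needs, read 7.43 and 8.24 in embryoid bodies labelled Bmi1, compared with 6.26 and 6.88 in vector embryoid bodies. Both sets gave a like difference, 1.17 and 1.36, with 1.26 ± 0.33 over both (adjusted p = 0.33, and 0.027 with the block). The blocked call of Peg10 was kept in 2 of 8 fits without 1 array, those without an ES cell array labelled Bmi1, and its adjusted p reached 0.11 in the others.

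Ascl2, a transcription factor of trophoblast progenitors, read 7.78 and 7.02 in embryoid bodies labelled Bmi1, compared with 6.49 and 6.52 in vector embryoid bodies. The difference was 0.89 ± 0.27 (adjusted p = 0.47, and 0.092 with the block), or 1.29 and 0.50 in the sets. A dimmer Ascl2 probe set read 6.38 and 6.22 in embryoid bodies labelled Bmi1, compared with 4.82 and 4.73 in vector embryoid bodies. It read 4.95 and 5.04 in ES cells labelled Bmi1, against 3.68 and 3.69 in control ES cells. In a fit over every probe set these differences of 1.53 and 1.31 had adjusted p = 0.065 and 0.14. Both were called with the block, with adjusted p = 0.0087 and 0.021. This dimmer probe set was above the array median only on the embryoid body arrays labelled Bmi1. It passed the filter through them alone, so these calls are no support.

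Trophoblast markers moved with these 3 genes. Of 13 listed markers 11 had a probe set and 9 were tested, and 7 of the 9 were higher in embryoid bodies labelled Bmi1, with a median difference of 1.46. Their summed level was 8370.2 and 10250.3 in embryoid bodies labelled Bmi1, compared with 2011 and 4105 in vector embryoid bodies, and 8 to 11 of the 11 were above the array median there, against 8 to 9 in vector embryoid bodies. In ES cells the same sum was 643.9 and 805 in cells labelled Bmi1, against 662 and 898 in controls, with 5 above the median in the first and 4 to 5 in the second. There Phlda2 read 12.24 and 12.04 in ES cells labelled Bmi1, against 11.50 and 11.34 in controls. The same ES cells read Ascl2 at 6.81 and 6.50, against 5.98 and 5.68 in controls, and Peg10 at 4.98 and 5.41, against 4.49 and 4.66 in controls. The part of trophoblast cells in the embryoid body differences was not tested.

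Among the lower members, Ndn read 10.95 and 10.82 in embryoid bodies labelled Bmi1, compared with 11.999 and 11.49 in vector embryoid bodies. Its difference of -0.86 ± 0.22 was the lowest of the members (adjusted p = 0.33, and 0.053 with the block), with -1.05 and -0.67 in the sets. Dlk1 read 11.23 and 11.18 in embryoid bodies labelled Bmi1, compared with 12.20 and 11.84 in vector embryoid bodies, a difference of -0.81 ± 0.32 (adjusted p = 0.65, and 0.20 with the block). Both genes thus kept clear of the vector arrays in both sets without passing the test.

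Nnat read 9.40 and 9.61 in embryoid bodies labelled Bmi1, compared with 10.00 and 10.08 in vector embryoid bodies (-0.54 ± 0.16, adjusted p = 0.46, and 0.068 with the block). Gatm was near the bottom of the scale, at 4.60 and 4.56 in embryoid bodies labelled Bmi1, compared with 5.61 and 4.93 in vector embryoid bodies (-0.69 ± 0.40), and none of these 4 arrays was above its median. Grb10 read 7.06 and 8.00 in embryoid bodies labelled Bmi1, compared with 7.63 and 8.91 in vector embryoid bodies. The groups overlapped for Grb10, yet within each set the array labelled Bmi1 was lower, by -0.58 and -0.91 (-0.75 ± 0.45, adjusted p = 0.84, and 0.067 with the block). Plagl1 read 13.17 and 13.25 in embryoid bodies labelled Bmi1, compared with 13.52 and 13.21 in vector embryoid bodies, and the arrays overlapped.

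Neural markers moved with the lower members: 0 of 8 were higher in embryoid bodies labelled Bmi1, with a median difference of -0.67. Their summed level was 483 and 694 in embryoid bodies labelled Bmi1, compared with 841 and 1558 in vector embryoid bodies. The endothelial and blood markers were lower too, with 0 of 5 and 1 of 7 members higher and medians of -0.96 and -0.73, while 5 of 6 striated muscle markers were higher, with a median of 1.32. Endothelial markers summed to 860 and 952 in embryoid bodies labelled Bmi1, compared with 1492 and 1606 in vector embryoid bodies. Blood markers summed to 1687 and 2583 in embryoid bodies labelled Bmi1, compared with 4742 and 5459 in vector embryoid bodies. Of 7 tested visceral endoderm markers 2 were higher and 5 lower, with a median of -0.35 and 1 of them, Sox17, called lower with the block. They summed to 4013 and 6463 in embryoid bodies labelled Bmi1, compared with 4185 and 5380 in vector embryoid bodies. What part these cell types had in the imprinted gene differences was not tested. For several other members the 2 sets disagreed. Rian differed by -1.30 in the replicate 1 arrays and by -0.02 in the replicate 2 arrays, Asb4 by -0.92 and -0.02, and Magel2 by 0.06 and -0.82.

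**Figure D2:**
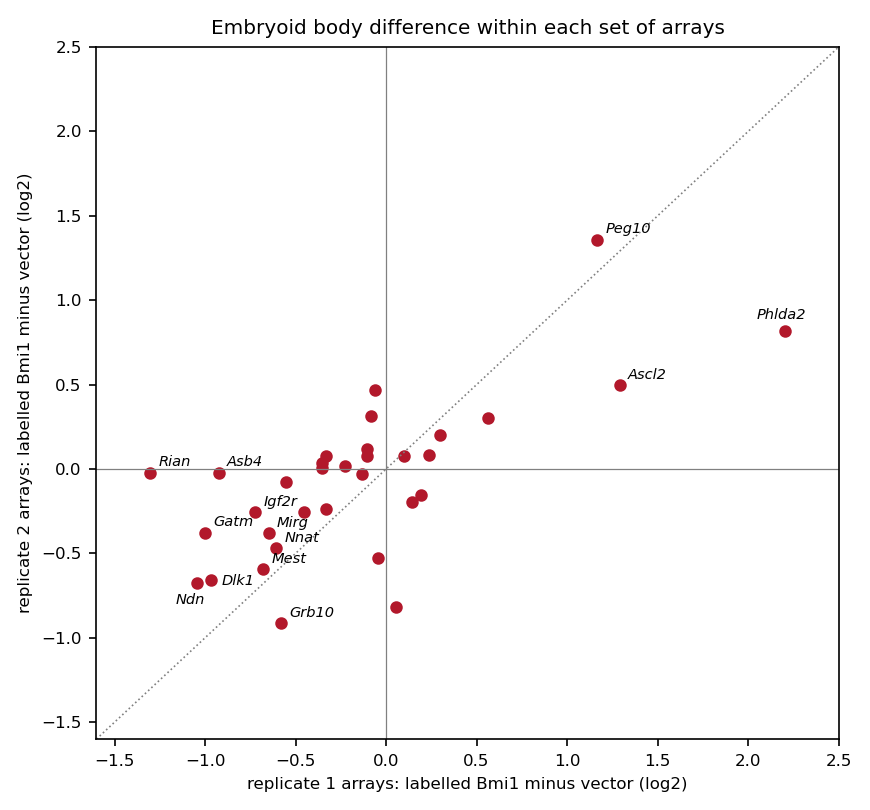
Log2 difference of the 33 tested imprinted genes between embryoid bodies labelled Bmi1 and vector embryoid bodies in the replicate 1 arrays (horizontal axis) and in the replicate 2 arrays (vertical axis), 1 point a gene, with names where the mean difference is beyond 0.45 and a dotted line of equal values. Phlda2, Ascl2 and Peg10 lie at the upper right, Ndn, Dlk1, Nnat and Grb10 at the lower left, and Rian and Asb4 lie at -1.30 and -0.92 on the horizontal axis but at -0.02 on the vertical one.

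The contrast of the 2 stages was tested as the embryoid body difference minus the ES cell difference. A negative value means that labelled Bmi1 stood lower against its control in embryoid bodies than in ES cells. Of the 33 members 21 were negative and 12 positive, with a median of -0.28 against -0.06 over all genes. By limma no gene of the 12982 was called, a share of 0%, and 7 members had an unadjusted p under 0.05, against 6.83% of all genes. With the set as a block 3 members were called, all negative, 9.09% of the 33, where 0.824% of all genes were called and 0.47% in this direction. These were Nnat at -1.96 ± 0.23 (adjusted p = 0.13, and 0.016 with the block), Ndn at -1.83 ± 0.32 (0.23 and 0.029) and Grb10 at -2.31 ± 0.64 (0.45 and 0.016). With the block over the 6 numbered arrays none of the 3 was called (adjusted p = 0.061, 0.067 and 0.16 in the same order). Each call was kept in 3 of 8 fits blocked by set without 1 array, those without replicate 2 of either embryoid body group or of ES cells labelled Bmi1.

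Gatm was at -3.01 ± 0.57 (adjusted p = 0.24, and 0.061 with the block), a value that rests on levels below the array median in the other 3 groups. Dlk1 stood at -2.35 ± 0.46 (0.24 and 0.066), and Plagl1 at -1.09 ± 0.35 (0.54 and 0.16). In all, 17 of the 33 members had a fitted difference above 0 in ES cells and below 0 in embryoid bodies, 51.5% against 28.1% of all genes. Of these, Nnat, Gnas, Gatm, Ndn and Dlk1 showed both without overlap between groups, 5 of 33 against 3.97% of all genes. Peg10, Inpp5f, Phlda2 and Ascl2 were higher without overlap at both stages, 4 of 33 against 3.56% of all genes. For Phlda2, Peg10 and Ascl2 the values of the contrast were 0.79 ± 0.45, 0.64 ± 0.47 and 0.07 ± 0.39, none called.

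**Figure D3:**
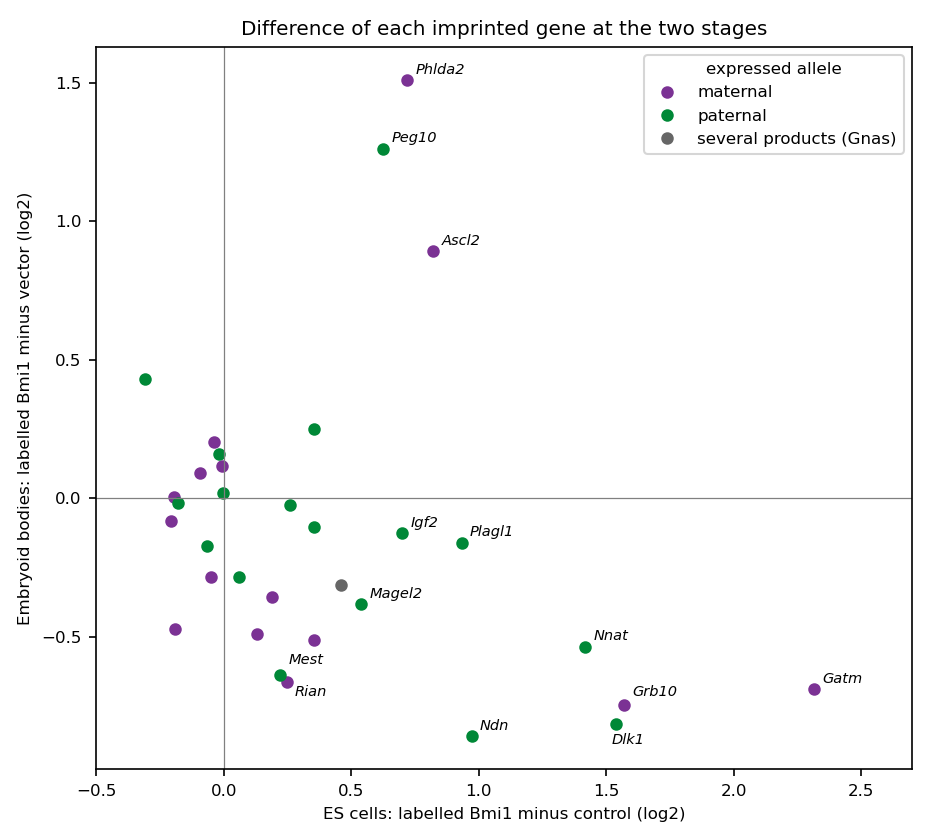
Log2 difference between labelled Bmi1 and control in ES cells (horizontal axis) and between labelled Bmi1 and vector in embryoid bodies (vertical axis) for the 33 tested imprinted genes, coloured by the allele known to be expressed. Gatm, Grb10, Dlk1, Nnat and Ndn lie at the lower right, higher in ES cells and lower in embryoid bodies, and Phlda2, Peg10 and Ascl2 at the upper right, higher at both stages.

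By expressed allele, the 17 tested paternally expressed genes had a median difference of 0.35 in ES cells, with 10 higher and 0 lower without overlap, where 25.1% and 20.6% of all genes were. The 15 maternally expressed ones had a median of 0.13, with 4 higher and 3 lower without overlap, near the shares of all genes. In embryoid bodies the medians were -0.13 for the paternal and -0.28 for the maternal kind. Each kind had 2 higher and 3 lower without overlap there, near the shares of all genes (10.8% higher and 14.4% lower). The members called in ES cells with the block were Nnat and Ndn of the paternal and Gatm and Grb10 of the maternal kind. The call of Gatm is no support, since Gatm passed the filter on dim genes only through the arrays of ES cells labelled Bmi1. Differences between neighbours were not tested. Dlk1 and Meg3, which are expressed from opposite alleles of one domain, differed by 1.54 and -0.04 in ES cells and by -0.81 and 0.20 in embryoid bodies. The Meg3 value of 0.20 was the highest of its 11 tested probe sets, which went down to -1.04 in embryoid bodies with 4 above 0. None of the Peg3 cluster was called, with Peg3, Usp29 and Zim1 at -0.18, -0.02 and -0.01 in ES cells and at -0.02, 0.16 and 0.12 in embryoid bodies.

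Many imprinted genes differed between the stages, which cannot be told apart from the sets of arrays. In vector embryoid bodies against control ES cells, limma called 17 members higher and 3 lower, 20 of 33, where 58.5% of all genes were called (22.7% higher and 35.8% lower). In embryoid bodies against ES cells labelled Bmi1 it called 16 higher and 6 lower, 22 of 33, where 59.2% of all genes were called (21.2% higher and 38% lower). The share of members called was thus near that of all genes, while the direction was upward for most members and downward for most genes. Median differences were 0.80 and 0.75 over the members, against -0.24 and -0.27 over all genes. The split depends on the scaling of the arrays: after median centring, which moved the medians of all genes to -0.56 and -0.62, the calls were 14 higher and 6 lower with vector or control and 13 and 10 with labelled Bmi1. After quantile normalization, with medians of all genes at -0.04 and -0.03, they were 18 and 2 and 19 and 4. Relative to the median of all genes the members' median stood at 1.04 and 1.02 as deposited, and between 1.02 and 1.22 under both other scalings. With the set as a block 26 and 28 members were called, against 74.8% and 74.4% of all genes. Peg10, Asb4, Zim1, Usp29 and Airn, all called higher, passed the filter on dim genes through embryoid body arrays alone, and Gatm, called lower with labelled Bmi1, through ES cell arrays alone, so these calls are no support.

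By allele, 12 of 17 paternally expressed genes were called higher and 0 lower with vector or control, and 11 and 1 with labelled Bmi1. Of all genes, 22.7% were called higher and 35.8% lower with vector or control, and 21.2% and 38% with labelled Bmi1. Of the 15 maternally expressed genes, 4 were higher and 3 lower with vector or control, and 4 and 5 with labelled Bmi1. The median stage differences were 1.999 and 1.55 for the paternal and 0.08 and 0.21 for the maternal kind. Among the genes called higher, Peg10, Usp29 and Airn (paternal) and Asb4 and Zim1 (maternal) passed the filter on dim genes through embryoid body arrays alone. Gatm (maternal), called lower with labelled Bmi1, passed it through ES cell arrays alone. Their calls are no support for a split by allele, and the medians include these genes.

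The highest stage differences of the list were those of Igf2, Dlk1 and Asb4, from 3 different clusters. Asb4 passed the filter on dim genes through embryoid body arrays alone, so its rise is no support. Igf2, the fetal insulin-like growth factor, read 13.58 and 13.67 in embryoid bodies labelled Bmi1 and 13.91 and 13.59 in vector embryoid bodies. Its level was 7.27 and 8.21 in ES cells labelled Bmi1 and 6.90 and 7.18 in control ES cells. Igf2 thus rose by 6.71 ± 0.31 with vector or control, 105-fold, and by 5.88 ± 0.31 with labelled Bmi1 (adjusted p = 2.6e-05 and 3.8e-05), and it ranked 11 from the highest of all genes with vector or control. Its other tested probe set gave a smaller rise with vector or control, 4.32. Dlk1, whose values stand above, rose by 6.56 ± 0.32 (rank 13) with vector or control and by 4.21 ± 0.32 with labelled Bmi1.

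In the Dlk1 domain the maternally expressed RNAs went their own ways. Meg3, a long non-coding RNA, read 12.59 and 12.12 in embryoid bodies labelled Bmi1 and 12.65 and 11.65 in vector embryoid bodies, against 10.29 and 11.72 in ES cells labelled Bmi1 and 10.81 and 11.27 in control ES cells. It was not called with vector or control (1.11 ± 0.51, adjusted p = 0.10). Rian, a host of small nucleolar RNAs, read 9.22 and 8.14 in embryoid bodies labelled Bmi1 and 10.53 and 8.16 in vector embryoid bodies, against 11.73 and 11.27 in ES cells labelled Bmi1 and 11.45 and 11.06 in control ES cells. It fell with labelled Bmi1, by -2.82 ± 0.72 (adjusted p = 0.013), a call lost without embryoid body replicate 2 or ES cell replicate 1 labelled Bmi1. With vector or control it was at -1.91 ± 0.72 (adjusted p = 0.054). Mirg, a microRNA host, read 7.82 and 8.04 in embryoid bodies labelled Bmi1 and 8.47 and 8.41 in vector embryoid bodies, against 8.35 and 9.34 in ES cells labelled Bmi1 and 8.20 and 8.79 in control ES cells. Its stage differences were -0.92 and -0.05, and neither was called as deposited without the block (adjusted p = 0.052 and 0.91).

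In the Peg10 and Sgce domain, Asb4, a substrate receptor of a ubiquitin ligase, was below the array median on all 4 ES cell arrays. It read 9.79 and 9.43 in embryoid bodies labelled Bmi1 and 10.71 and 9.45 in vector embryoid bodies, against 3.97 and 3.92 in ES cells labelled Bmi1 and 4.01 and 4.26 in control ES cells. The rises were 5.66 ± 0.38 and 5.94 ± 0.38 with labelled Bmi1 and with vector or control. Sgce, the epsilon-sarcoglycan, read 9.85 and 9.73 in embryoid bodies labelled Bmi1 and 10.08 and 9.71 in vector embryoid bodies, against 6.99 and 6.92 in ES cells labelled Bmi1 and 6.46 and 6.74 in control ES cells. It rose by 2.84 ± 0.20 and 3.29 ± 0.20, and Peg10 rose by 2.64 ± 0.33 and 1.999 ± 0.33, in the same order. Ppp1r9a, an actin-binding partner of protein phosphatase 1, moved least of the domain, at 0.21 ± 0.20 and 0.08 ± 0.20.

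All 3 measured genes of the Peg3 domain rose in both comparisons. Peg3, a zinc finger protein of growth and maternal behaviour, read 12.60 and 12.59 in embryoid bodies labelled Bmi1 and 12.71 and 12.51 in vector embryoid bodies, against 9.35 and 10.08 in ES cells labelled Bmi1 and 9.85 and 9.94 in control ES cells. Usp29, a ubiquitin peptidase that starts next to Peg3, read 6.38 and 5.87 in embryoid bodies labelled Bmi1 and 6.14 and 5.79 in vector embryoid bodies, against 4.57 and 4.57 in ES cells labelled Bmi1 and 4.75 and 4.44 in control ES cells. Zim1, a zinc finger gene of the opposite allele, read 6.85 and 7.09 in embryoid bodies labelled Bmi1 and 6.93 and 6.77 in vector embryoid bodies, against 4.83 and 4.65 in ES cells labelled Bmi1 and 4.76 and 4.73 in control ES cells. Their rises were 2.88, 1.55 and 2.23 with labelled Bmi1 and 2.72, 1.37 and 2.11 with vector or control. Usp29 and Zim1 passed the filter on dim genes through embryoid body arrays alone, so their rises are no support for a joint rise of both alleles.

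In the Snrpn and Ube3a domain, which in humans is the Prader-Willi and Angelman region, Ndn alone rose, by 1.29 ± 0.22 with labelled Bmi1 and by 3.13 ± 0.22 with vector or control. Mkrn3, a ring finger protein, read 6.07 and 7.02 in embryoid bodies labelled Bmi1 and 6.41 and 7.25 in vector embryoid bodies, against 7.60 and 7.20 in ES cells labelled Bmi1 and 7.42 and 7.26 in control ES cells, and was called lower with the block (-0.86 and -0.51), but not without it as deposited. Snrpn, a splicing protein, read 6.48 and 6.26 in embryoid bodies labelled Bmi1 and 6.33 and 6.46 in vector embryoid bodies, against 6.91 and 7.05 in ES cells labelled Bmi1 and 6.77 and 6.67 in control ES cells. It fell with labelled Bmi1 (-0.61 ± 0.17, adjusted p = 0.017), a call lost without embryoid body replicate 2 or either ES cell array labelled Bmi1. The Snrpn values rest on 1 probe set, since 6 others carry several symbols. Magel2, at -0.46 ± 0.28 and 0.46 ± 0.28 with labelled Bmi1 and with vector or control, and Ube3a, a ubiquitin ligase, at 0.27 ± 0.27 and 0.07 ± 0.27, were not called. Peg12 was dim, between 3.997 and 6.01.

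In the Kcnq1 domain 2 of 6 genes were called higher and 2 lower with labelled Bmi1, where 59.2% of all genes were called. With vector or control 1 was called higher and 3 lower, where 58.5% of all genes were called. Tssc4, a partner of the spliceosome, read 6.60 and 7.07 in embryoid bodies labelled Bmi1 and 6.64 and 7.60 in vector embryoid bodies, against 9.01 and 8.91 in ES cells labelled Bmi1 and 8.99 and 9.03 in control ES cells. It fell by -2.12 ± 0.32 and -1.89 ± 0.32 with labelled Bmi1 and with vector or control. Cd81, a tetraspanin, read 10.91 and 11.04 in embryoid bodies labelled Bmi1 and 11.36 and 11.30 in vector embryoid bodies, against 12.13 and 12.35 in ES cells labelled Bmi1 and 11.94 and 12.16 in control ES cells. Cd81 fell by -1.27 ± 0.17 and -0.72 ± 0.17, but after quantile normalization the value with vector or control was 0.19, and without the empty vector ES cell array that call was lost.

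Phlda2 fell with vector or control (-0.93 ± 0.32, adjusted p = 0.037), but was at -0.14 ± 0.32 with labelled Bmi1, and the call was lost without vector replicate 1, either ES cell array labelled Bmi1 or either control array. Slc22a18, an organic cation transporter, read 7.52 and 6.99 in embryoid bodies labelled Bmi1 and 7.42 and 6.91 in vector embryoid bodies, against 6.30 and 6.24 in ES cells labelled Bmi1 and 6.35 and 6.37 in control ES cells. It rose by 0.99 and 0.80, and Ascl2 rose with labelled Bmi1 (0.75, adjusted p = 0.049). Slc22a18 lost its calls without embryoid body replicate 1 of the group compared or without either of its ES cell arrays. The Ascl2 call was lost without embryoid body replicate 1 labelled Bmi1 or any of the 4 ES cell arrays. Kcnq1ot1, the non-coding RNA that silences this domain on the paternal chromosome, read 6.51 and 8.25 in embryoid bodies labelled Bmi1 and 5.95 and 7.95 in vector embryoid bodies, against 6.99 and 8.23 in ES cells labelled Bmi1 and 7.73 and 8.11 in control ES cells. Its replicates lay up to 2 log2 units apart, so its blocked call with vector or control (-0.97, adjusted p = 0.0496) is weak, and without vector replicate 1 the value was 0.03.

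Airn, the non-coding RNA that silences Igf2r on the paternal chromosome, read 7.48 and 7.75 in embryoid bodies labelled Bmi1 and 7.29 and 7.91 in vector embryoid bodies, against 4.67 and 4.61 in ES cells labelled Bmi1 and 4.63 and 4.66 in control ES cells. It was below the median in all 4 ES cell arrays and rose by 2.98 ± 0.23 and 2.96 ± 0.23 with labelled Bmi1 and with vector or control. Igf2r, the receptor that clears Igf2, read 9.13 and 10.67 in embryoid bodies labelled Bmi1 and 9.85 and 10.92 in vector embryoid bodies, against 8.86 and 8.88 in ES cells labelled Bmi1 and 8.57 and 8.91 in control ES cells. It rose with vector or control (1.65 ± 0.53, adjusted p = 0.03), a call lost without vector replicate 2 or any of the 4 ES cell arrays, and was at 1.03 ± 0.53 with labelled Bmi1.

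Of the single-gene loci, Plagl1 rose by 2.30 ± 0.25 and 3.39 ± 0.25 and Nnat by 1.76 ± 0.16 and 3.72 ± 0.16 with labelled Bmi1 and with vector or control. Mest, a hydrolase-like protein of mesoderm, read 8.44 and 9.15 in embryoid bodies labelled Bmi1 and 9.12 and 9.75 in vector embryoid bodies, against 7.73 and 7.73 in ES cells labelled Bmi1 and 6.98 and 8.04 in control ES cells. It was at 1.07 ± 0.40 with labelled Bmi1 (adjusted p = 0.054) and rose by 1.93 ± 0.40 with vector or control. Gnas, the stimulatory G protein alpha subunit, read 12.89 and 12.91 in embryoid bodies labelled Bmi1 and 13.44 and 12.99 in vector embryoid bodies, against 12.26 and 12.24 in ES cells labelled Bmi1 and 11.68 and 11.90 in control ES cells. It rose by 0.65 ± 0.20 and 1.43 ± 0.20, and the call with labelled Bmi1 was lost without any 1 of the 4 arrays labelled Bmi1.

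Inpp5f, a phosphoinositide phosphatase of which 1 kind of transcript is imprinted, read 8.86 and 9.02 in embryoid bodies labelled Bmi1 and 8.57 and 8.82 in vector embryoid bodies, against 8.42 and 8.23 in ES cells labelled Bmi1 and 8.06 and 7.89 in control ES cells. It rose by 0.62 and 0.72, with calls lost without embryoid body replicate 2 or either ES cell array labelled Bmi1 in the first and without the empty vector ES cell array in the second. Impact, a regulator of translation, read 10.99 and 10.84 in embryoid bodies labelled Bmi1 and 11.34 and 10.83 in vector embryoid bodies, against 11.36 and 11.59 in ES cells labelled Bmi1 and 11.59 and 11.48 in control ES cells. It was called lower with the block, at -0.56 and -0.45, but not without it as deposited (adjusted p = 0.056 and 0.11), and the sign turned to 0.37 and 0.41 after quantile normalization and to 0.24 and 0.10 with the mean of its probe sets. Grb10 and Gatm fell with labelled Bmi1, by -2.82 ± 0.45 and -2.58 ± 0.40, and were at -0.51 ± 0.45 and 0.42 ± 0.40 with vector or control. Nap1l5 lay between 4.77 and 5.86 and Rasgrf1 between 3.87 and 4.62 over the 8 arrays.

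**Figure D4:**
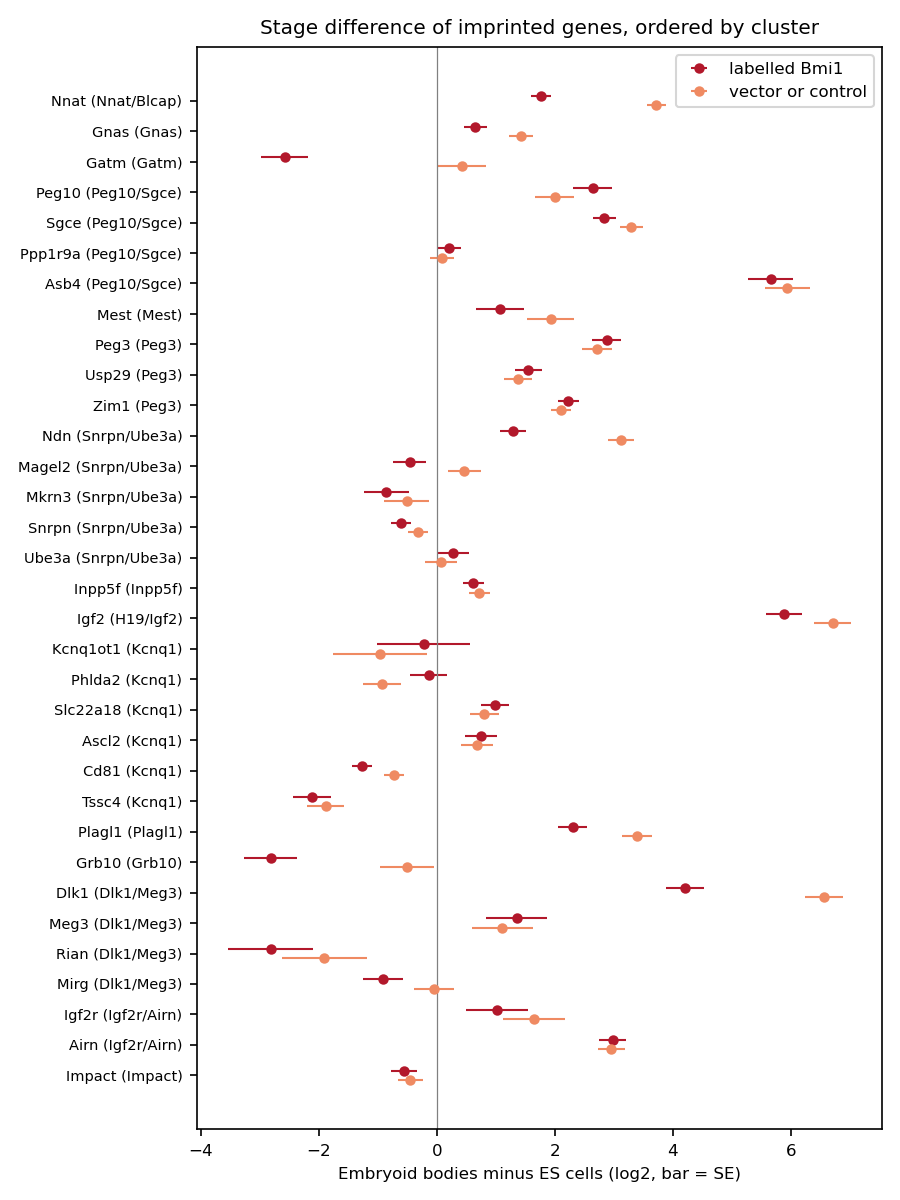
Log2 difference of embryoid bodies minus ES cells (horizontal axis, point ± SE) for the 33 tested imprinted genes, listed by cluster (vertical axis), with labelled Bmi1 in dark red and vector or control in orange. Igf2, Dlk1 and Asb4 lie furthest to the right, Rian and Tssc4 to the left, and Grb10 and Gatm are to the left with labelled Bmi1 and near 0 with vector or control.

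Several members had more than 1 tested probe set, 17 genes with 74 tested probe sets over all members. The 5 Ndn probe sets shared their sign: they differed by 0.83 to 1.08 in ES cells and by -1.02 to -0.27 in embryoid bodies. The 2 Grb10 probe sets differed by 0.63 and 1.57 in ES cells and by -0.21 and -0.75 in embryoid bodies, so the sign was shared and the size was not. The 3 Plagl1 probe sets ranged from -0.16 to 0.93 in ES cells and from -0.62 to 0.63 in embryoid bodies. The 11 of Meg3 ranged from -1.04 to 0.20 in embryoid bodies. The 2 Igf2 probe sets differed by -0.02 and 0.70 in ES cells. Probe sets of both signs were seen for 7 of the 17 genes in embryoid bodies, for 8 in ES cells and for 6 in the stage comparison with vector or control. Nnat, Gatm and Peg10 had 1 probe set each.

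**Figure D5:**
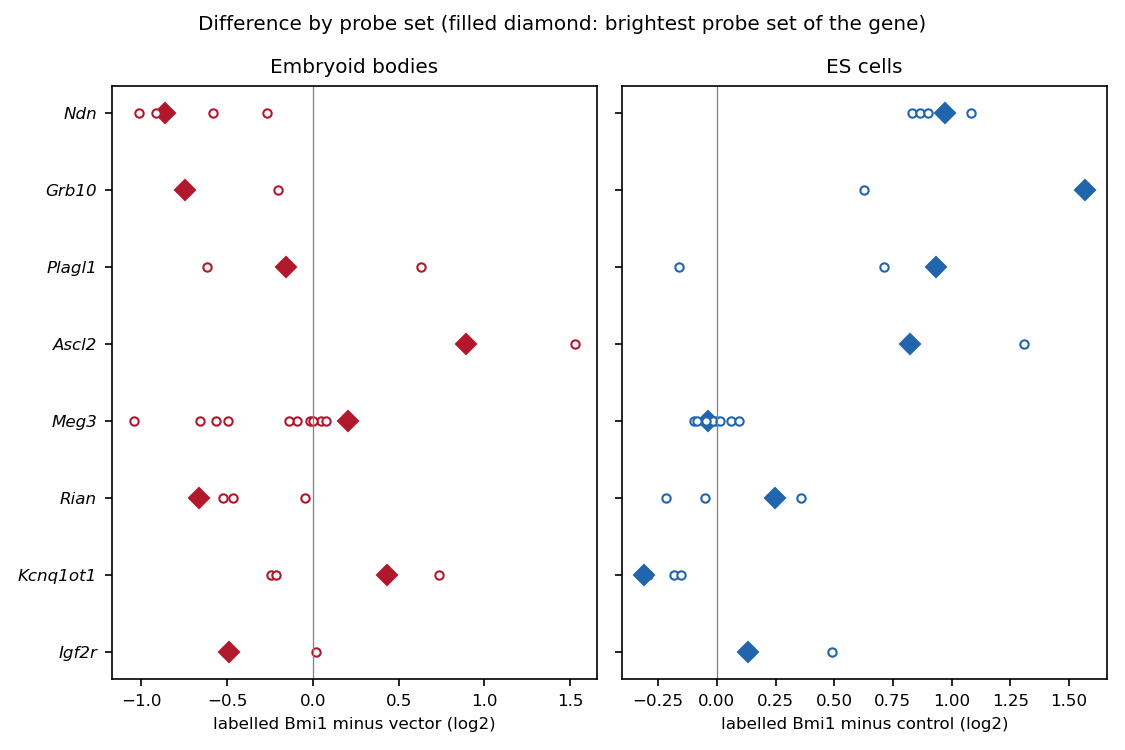
Log2 difference of labelled Bmi1 minus vector in embryoid bodies (left) and minus control in ES cells (right) for each tested probe set of 8 imprinted genes (rows); filled diamonds mark the brightest probe set, open circles the others. The 5 Ndn probe sets all lie below 0 in embryoid bodies and above 0 in ES cells, while those of Plagl1 lie on both sides of 0.

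A further 36 imprinted or neighbouring genes, of which 23 were tested, had a median difference of 0.01 in ES cells, with 12 higher and 11 lower. None was called by limma, and 1 was called with the block, Pon2, a lactonase near Peg10. Pon2 read 8.19 and 8.17 in ES cells labelled Bmi1, against 7.37 and 7.44 in control ES cells (0.77 ± 0.15, adjusted p = 0.18, and 0.032 with the block). Cdkn1c, the growth-limiting cell cycle inhibitor of the Kcnq1 domain, read 11.28 and 11.33 in embryoid bodies labelled Bmi1, compared with 10.13 and 10.79 in vector embryoid bodies. It also read 11.48 and 10.81 in ES cells labelled Bmi1, against 10.24 and 10.03 in control ES cells. Like Phlda2 and Ascl2 it was higher at both stages without overlap, with differences of 0.84 ± 0.29 and 1.01 ± 0.29, neither called (adjusted p = 0.55 and 0.43). Sfmbt2, a Polycomb-related gene imprinted in the placenta, went the other way at the stages, with 1.35 ± 0.66 in embryoid bodies and -1.87 ± 0.66 in ES cells, neither called.

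Genes that write or keep imprints, 25 listed and 23 tested, had medians of -0.00 in embryoid bodies and -0.08 in ES cells. None was called by limma in either. With the block 1 was called, in ES cells: Tet2, a dioxygenase that starts DNA demethylation, read 9.79 and 10.03 in ES cells labelled Bmi1, against 10.998 and 10.95 in control ES cells (-1.07 ± 0.23, adjusted p = 0.21, and 0.029 with the block). Zfp57 read 7.19 and 7.78 in ES cells labelled Bmi1, against 8.11 and 8.13 in control ES cells (-0.64 ± 0.39, adjusted p = 1, and 0.38 with the block). Between stages 19 of the 23 fell with labelled Bmi1 and 19 with vector or control, and 0 rose in either, where 38% and 35.8% of all genes fell. Examples with vector or control are Tet1 at -3.63 ± 0.46 and Eed, a subunit of Polycomb repressive complex 2, at -2.21 ± 0.26, and with labelled Bmi1 Trim28, the corepressor that ZFP57 recruits, at -1.94 ± 0.24.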

How the data were processed

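The deposited log2 values of 8 arrays, 1 column each, were used. The authors made them with RMA, per the submitters' processing notes, from biotin-labelled RNA, per the labels' protocols. The version and which arrays were normalized together are not given in the sources used here. The mean gap between sorted values was 0.00994 to 0.0325 within the 3 sets of arrays and 0.189 to 0.442 across them. The value table holds 45037 probe sets after 64 controls were set aside. Symbols came from the platform annotation, and 34945 probe sets had 1 symbol, 932 several and 9160 none.

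A gene was read by its brightest one-symbol probe set (18193 genes) and tested if it was above the array median of non-control probe sets on at least 2 arrays (12982 genes, with 5211 left out). Limma 3.58.1 in R 4.3.3 was fitted to all 8 arrays in 4 groups, with 4 residual degrees of freedom, and its two-sided p-values were adjusted over all genes tested (Benjamini-Hochberg). The code was tested on simulated data.

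The replicate numbers were checked for pairing. Deviations from group means correlated at r = 0.72 between the replicate 1 arrays of both embryoid body groups, and at 0.03 and 0.04 between these and the replicate 1 ES cell array labelled Bmi1. The labels do not say that a number marks a shared batch. The embryoid body set was therefore a block in a second fit, with 3 residual degrees of freedom, and the control ES cells carry no number. Alternatives were other filters, the mean of probe sets, every probe set, quantile normalization, median centring, a trend and robust prior, array weights, 1 stage at a time, a block over the 6 numbered arrays and each array left out in turn. Where that left 1 array in a group, it was assumed to vary like the others.

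The members and lists were chosen with earlier results of these data known. Values on every array are given for members called in any comparison with or without the block, and for the 6 with the largest differences in each comparison of labels among those without overlap (for the difference of differences, regardless of overlap). Other genes named are Bmi1 and up to 3 of each further list per comparison by smallest p. Promoter sequences are from RefSeq.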

Additional observations from a re-analysis of the deposited data

Results flagged for a closer look

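For 3 members the difference between labelled Bmi1 and control was called as unequal at the 2 stages, by a test of the difference itself that took the set of embryoid body arrays as a block. The embryoid body difference minus the ES cell difference was -1.96 for Nnat, -1.83 for Ndn and -2.31 for Grb10 on the log2 scale. Neither without the block nor with the block over the 6 numbered arrays was any of the 3 called, and each blocked call was kept in 3 of 8 fits without 1 array.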

How the results depend on the processing

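The number of imprinted genes called between labels depended on the fit. In embryoid bodies 0 were called, 1 with the replicate block for the embryoid body set or with a replicate block over the 6 numbered arrays, and 0 to 1 without 1 array (Phlda2 without vector replicate 2). In ES cells 0 were called, 4 with the replicate block for the set, 2 with the replicate block over the 6 numbered arrays, 8 with array weights, 2 with arrays of 1 stage, and 0 to 1 without 1 array (Nnat without either vector embryoid body array). For the difference of the stages 0 were called, 3 with the replicate block for the set, 0 with the replicate block over the 6 numbered arrays and 0 to 2 without 1 array (Nnat and Ndn without vector replicate 2). Further choices made after the data were seen changed the blocked counts. In embryoid bodies the blocked count of 1 became 0 with the 75th percentile filter, 2 with the mean of probe sets, 4 with quantile normalization, 4 with the trend and robust prior, 2 over every probe set and 0 to 1 without 1 array. In ES cells the blocked count of 4 became 2 with quantile normalization and 0 to 3 without 1 array, and for the difference of the stages 3 became 0 to 4 without 1 array. Which genes were called also changed. The blocked ES cell count was 3 with the mean of probe sets (Nnat, Gatm and Ascl2) and over every probe set (Nnat, Grb10 and Ascl2). It was also 3 with the 75th percentile filter (Nnat, Ndn and Grb10). For the difference of the stages the blocked count was 2, Nnat and Grb10, with the mean of probe sets and over every probe set. Counts of stage calls stayed within 1.5 times under every alternative run. Among members called between stages with or without the block, and only these were tried, stage differences that changed sign were those of Cd81 with vector or control (0.19 with quantile normalization, with and without the block), Impact with vector or control (0.10 with the mean of probe sets and 0.41 with quantile normalization, with and without the block), Impact with labelled Bmi1 (0.24 and 0.37 under the same settings), and, with vector or control, Grb10 (-1.14 to 0.13 without 1 array, positive without vector replicate 1) and Kcnq1ot1 (-1.97 to 0.030, likewise). These sign changes are those of fits with 1 value a gene, and their cause was not tested. The 9 members with the largest differences between labels kept their sign under every alternative with 1 value a gene, in the comparisons where they ranked among the 6 largest. Single probe sets could differ in sign: those of Plagl1 ranged from -0.16 to 0.93 in ES cells. Between stages with vector or control they ranged from -0.58 to 4.09. Low signal limits differences of genes such as Gatm, which was below the array median outside ES cells labelled Bmi1.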
